A study of Oryza coarctata with 5 samples.

Results

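A set of 150 assembled transcripts of *Oryza coarctata* (*Porteresia*) stood higher at 700 mM than at 450 mM NaCl and lower in submergence in water than in the water control. They were chosen by measured values, from 152367 transcripts listed. A transcript was eligible if its RPKM (reads per kilobase of transcript, relative to all reads of its library) was above 0 in all 5 libraries and at least 5 at 700 mM NaCl, and if 450 mM NaCl over control was at least -0.5 on the log2 scale. The 22199 eligible transcripts were ranked by the smaller of their log2 ratio of 700 mM to 450 mM NaCl and their log2 ratio of water control to submergence in water, with 0.5 added to each RPKM. The 150 highest, 0.676% of the eligible, are the members. The 2 ratios share no library. The submerged-in-salt library entered the choice only through the requirement of RPKM above 0. Its place between the opposed treatments was not itself chosen. The rule took both ends of that scale, however, 1 low and 1 high, which favours a place between them.

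Mature plants were collected from nature and kept in 1 of 5 conditions: submergence in 450 mM NaCl, 700 mM NaCl, 450 mM NaCl, submergence in water, or water alone as control. Messenger RNA of each condition was sequenced as 1 library. Strain, age, tissue beyond "mature plant", plants per library and duration of treatment are not stated in the sources used here. With 1 library a condition, the spread between plants is unknown, no test was run, and all differences are sizes only. "Called" means a ratio of at least 2-fold on RPKM + 0.5, with RPKM of at least 1 in either library compared. Only transcripts that reach this RPKM, 70838 to 77196 of the 152367 depending on the comparison, can be called, and background shares are shares of these callable transcripts. Intervals in brackets are exact 95% intervals of the RPKM ratio and cover counting error only. How often such an interval leaves out 1 was not computed over all eligible transcripts. Counts of members by interval are therefore descriptions only, and do not show that the members are unusual. Read totals, read from the steps between RPKM values, were approximately 74867541 for submergence in salt, 58431827 at 700 mM, 59818916 at 450 mM, 78997383 for submergence in water and 56638113 for the control. In bulk material, a lower level can be less RNA per cell or fewer of the cells that hold it, and the data do not tell these apart.

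*Oryza coarctata* is a wild relative of cultivated rice that grows on tidal, saline river banks, where salt and flooding come together. Salt stresses a plant by drawing out water and by ion toxicity, and plants answer with abscisic acid signalling, compatible solutes and ion transport. Submergence slows gas exchange, which limits oxygen and carbon dioxide, and shifts metabolism from respiration to fermentation. The question put to the members is where submergence in salt water places transcripts whose levels differ in opposite directions with strong salt and with submergence alone. The transcripts carry assembly numbers with no gene names, so no member can be given a gene or a function, no gene list could be applied, and the labelled source could not be set against marker genes. Several transcripts can come from 1 gene, and near-identical copies in this polyploid can share reads.

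The values that chose the members are described first. Across members the log2 ratio of 700 mM to 450 mM NaCl had a median of 1.31 (interquartile range 1.17 to 1.52), and the log2 ratio of submergence in water to the control had a median of -1.94 (-2.38 to -1.55). As plain RPKM ratios these medians were 2.68-fold higher and 8.09-fold lower, since the added 0.5 shrinks ratios of low transcripts. All 150 were called higher at 700 mM than at 450 mM, where 4.0% of callable transcripts were, and all 150 were called lower in submergence in water than in the control, where 11.9% were. The rule fixed both counts. The dose step was the smaller ratio, and so set the score, in 121 members, and the submergence ratio did so in 29. Scores ran from 1.09 to 1.92, which is 2.13-fold to 3.78-fold.

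**Figure D1:**
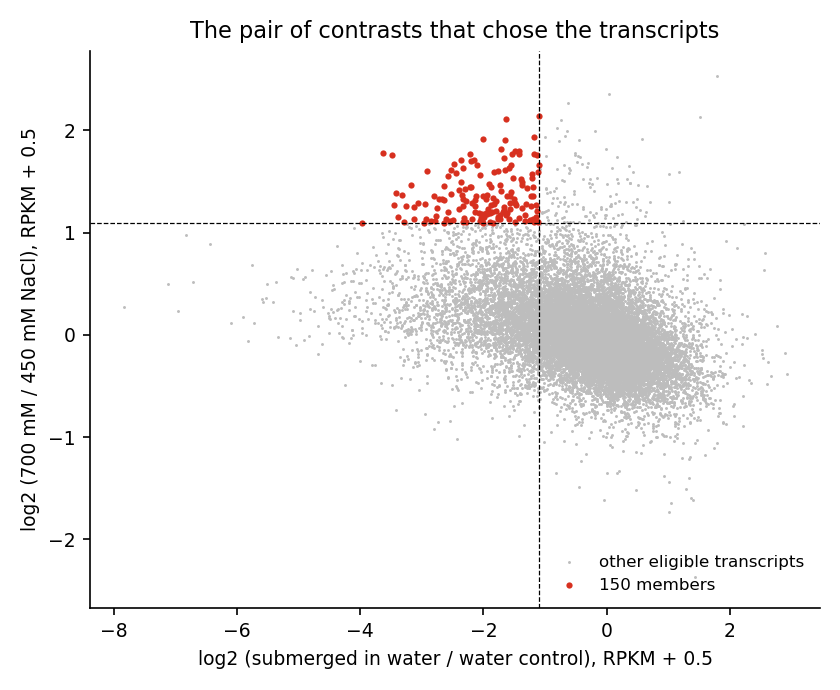
Log2 ratio of 700 mM to 450 mM NaCl (y axis) against log2 ratio of submergence in water to the water control (x axis), both on RPKM + 0.5, for the 22199 eligible transcripts. The 150 members (red) fill the upper left corner beyond the dashed lines at the lowest score of 1.09, and the other eligible transcripts are grey.

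Among eligible transcripts, 278 reached the lowest member's ratio of 700 mM to 450 mM NaCl. Of these 278, 150 were also that far down in submergence in water (53.96%) and 4 were that far up (1.44%). Over all eligible transcripts 16.8% were that far down and 2.88% that far up. Read the other way, 150 of 3737 transcripts that far down in submergence had the dose step (4.01%). These shares use the contrasts of the rule and are given as a description.

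The ends of the ranking show how narrow the limit is. The last member inside was Pc_TC035507 (254 nt), with 8.42 RPKM at 700 mM against 3.69 at 450 mM NaCl, and 0.349 RPKM in submergence in water against 2.92 in the control. The one before it, Pc_TC098786 (323 nt), had 18.6 RPKM at 700 mM against 5.54 at 450 mM, and 1.45 RPKM in submergence in water against 3.66 in the control. The first transcript outside was Pc_TC091843 (1241 nt), with 5.41 RPKM at 700 mM against 2.28 at 450 mM, and 0.173 RPKM in submergence in water against 2.05 in the control. The next, Pc_TC117476 (355 nt), had 6.27 RPKM at 700 mM against 2.68 at 450 mM, and 0.499 RPKM in submergence in water against 2.29 in the control. Scores of these 4 were all 1.09, so the limit falls within a continuous ranking. The eligibility conditions also kept out transcripts whose score reached the limit: 91 were under RPKM 5 at 700 mM, 46 were too low at 450 mM against the control, and 11 were listed at 0 in a library.

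Most members were of low abundance. The median RPKM was 1.29 in submergence in salt (lowest 0.0329, highest 68.3), 8.95 at 700 mM NaCl (5.01 to 498), 3.14 at 450 mM (1.09 to 209), 0.385 in submergence in water (0.0120 to 61.6) and 3.13 in the water control (1.08 to 197). The 700 mM library was the highest of the 5 for all 150 members, which the choice favours. Submergence in water was the lowest library for 141 members and submergence in salt for the other 9. In 125 members the order was 700 mM first, then 450 mM and the control in either order, then submergence in salt, then submergence in water. The rule fixed 700 mM above 450 mM and the control, and both of these above submergence in water. Only where submergence in salt fell in this order was left free. All eligible transcripts had median RPKM between 11.8 and 12.8 in each library, so the members had lower medians in every condition.

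**Figure D2:**
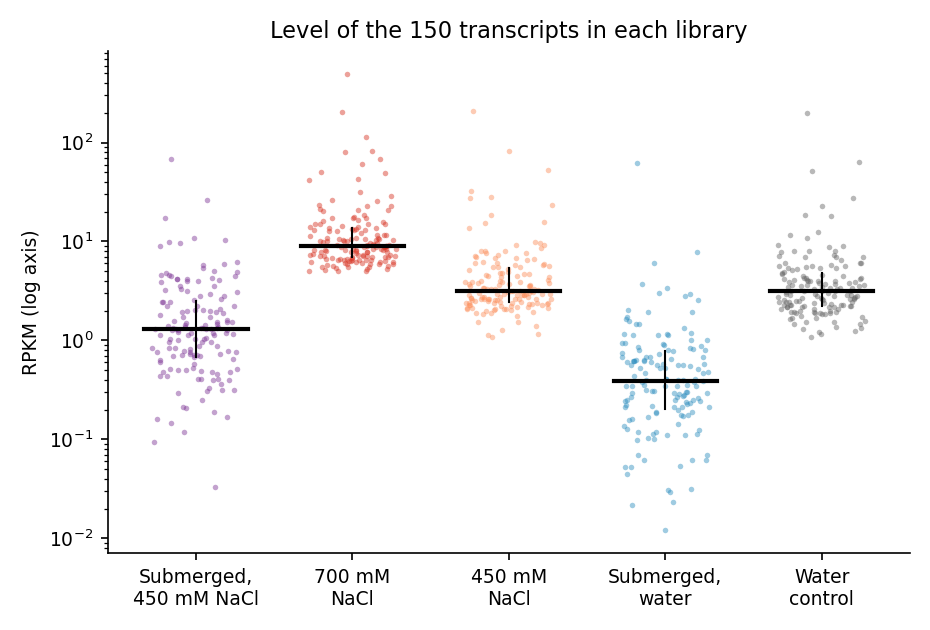
RPKM (log axis) of the 150 members in each library. Points are transcripts, horizontal bars medians and vertical bars interquartile ranges. Medians are 1.29 in submergence in 450 mM NaCl, 8.95 at 700 mM, 3.14 at 450 mM, 0.385 when submerged in water and 3.13 in the control.

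Summed over members, RPKM was 397 in submergence in salt, 2729 at 700 mM, 1036 at 450 mM, 163 when submerged in water and 923 in the control. This is 0.0535%, 0.368%, 0.137%, 0.0217% and 0.124% of all RPKM in the same order. Without Pc_TC012290, the most abundant member, the sums were 329, 2231, 827, 102 and 726, in the same order of libraries, and their ranking did not change.

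Submergence in salt placed the members between the opposed treatments and nearer to submergence in water. On a log2 scale where 0 is the level in submergence in water and 1 the level at 700 mM NaCl, its median place was 0.26 (interquartile range 0.13 to 0.38, lowest -0.28, highest 0.80). Of 150 members, 19 lay at or past the midpoint of 0.5 (12.7%). A further 9 lay below 0, under the level in submergence in water, and none lay above 1. The rule had taken members low in submergence in water and high at 700 mM, which favours places between 0 and 1. On the same scale the median place of the control was 0.57 and that of 450 mM NaCl was 0.61, so the typical member in submergence in salt lay about midway between submergence in water and the control. With the control as the upper end in place of 700 mM, the median place was 0.48 and 47.3% of members were past the midpoint.

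**Figure D3:**
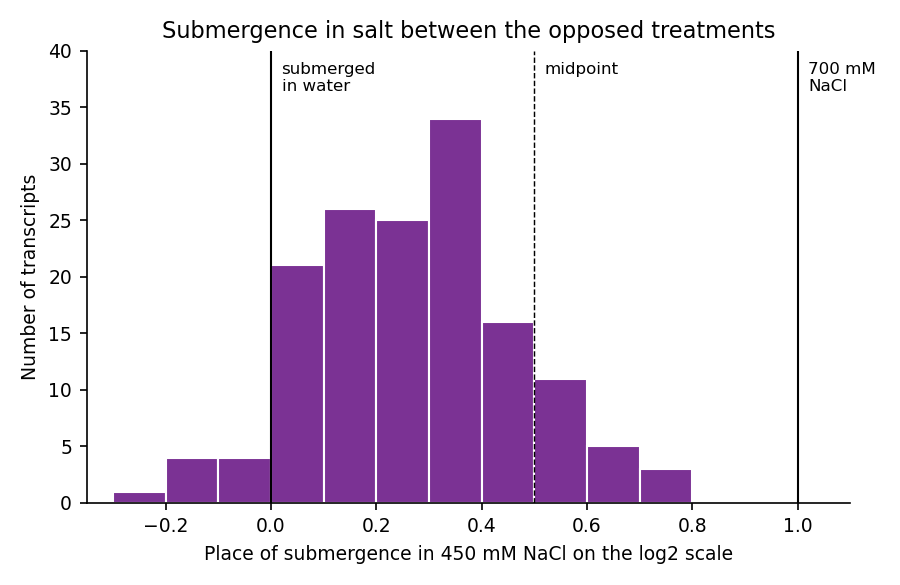
Number of members by the place of submergence in 450 mM NaCl on a log2 scale from submergence in water (0) to 700 mM NaCl (1), in steps of 0.1. The median is 0.26, 19 members lie at or past the dashed midpoint, 9 lie below 0 and none lies above 1.

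Set against submergence in water, a comparison of salt with no salt under water, the members were mostly higher in submergence in salt. Of 150 members, 141 stood higher and 9 lower, where 62.4% of all eligible transcripts stood higher. The median log2 ratio was 0.89 (0.42 to 1.36), and the median plain RPKM ratio was 3.38-fold. Of the 92 members that could be called, 62 were called higher (67.4%) and 0 lower, where 4.88% of callable transcripts were called higher and 5.65% lower. The other 58 members had RPKM under 1 in both libraries, so the 62 are 41.3% of all members. Of all eligible transcripts 8.92% were called higher and 0.437% lower, so the count of 0 lower is near the eligible share. The counting interval lay above 1 for 117 members and below 1 for 1, with no eligible share computed. The rule had taken members low in submergence in water, which favours a ratio above 1 here.

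Submergence in salt against 450 mM NaCl compares submerged with unsubmerged plants at the same salt dose, and it shares no library with the submergence ratio of the rule. Here 139 members stood lower and 11 higher, where 53.9% of all eligible transcripts stood lower. The median log2 ratio was -1.30 (-1.64 to -0.72), a median plain ratio of 3.04-fold lower. Calls numbered 94 lower (62.7%) and 0 higher, where 8.68% of callable transcripts were called lower and 7.66% higher. Of all eligible transcripts 10.3% were called lower and 1.82% higher, so the count of 0 higher is near the eligible share. The interval lay below 1 for 125 members, with no eligible share computed. The rule bears on this ratio in both directions: it had taken members low at 450 mM against 700 mM, which works against a ratio below 1, and it had barred members low at 450 mM against the control, which favours one. With members chosen without that bar, the median was -0.97 and 49.3% were called lower. The median of submergence in water against the control was -1.94. Across the 150 members the log2 ratios of submergence with and without salt correlated with Pearson's r of 0.42 and Spearman's rho of 0.42. They rest on 4 different libraries, but the choice cut off the range of the ratio in water.

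**Figure D4:**
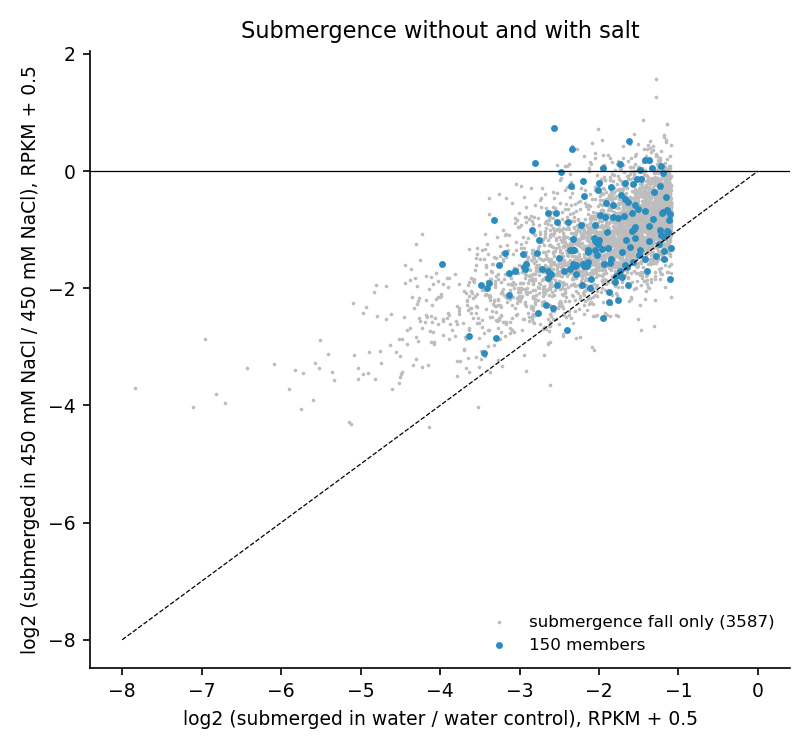
Log2 ratio of submergence in 450 mM NaCl to 450 mM NaCl (y axis) against log2 ratio of submergence in water to the water control (x axis), on RPKM + 0.5. Of the 150 members (blue), 139 lie below the solid line at 0, and points above the dashed line of equal ratios had the smaller fall with salt. Grey points are 3587 eligible transcripts with the submergence fall but without the dose step.

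Against the water control the members were mostly lower in submergence in salt. Of 150 members, 137 stood lower and 13 higher, where 52.3% of all eligible transcripts stood lower. The median log2 ratio was -1.07 (-1.54 to -0.57), a median plain ratio of 2.57-fold lower. Calls numbered 82 lower (54.7%) and 0 higher, where 6.92% of callable transcripts were called lower and 3.65% higher. Of all eligible transcripts 7.73% were called lower and 1.40% higher, so the count of 0 higher is near the eligible share. Together with the comparison above, 128 members lay between the level in submergence in water and the level of the control. The rule had taken members high in the control, which favours a ratio below 1. Against 700 mM NaCl all 150 members stood lower, with a median log2 ratio of -2.61 (-3.04 to -2.01), and 148 were called lower, where 13.5% of callable transcripts were. Of all eligible transcripts 50.8% stood lower than at 700 mM. Salt dose and submergence both differ between these last libraries, and the rule had taken members high at 700 mM.

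These values can be set beside transcripts that meet only 1 side of the rule. A group of 3587 eligible transcripts reached the same submergence ratio without the dose step, and 128 reached the dose step without the submergence ratio. Submergence in salt against submergence in water gave a median log2 ratio of 0.89 in the members, 0.89 in the submergence-only group and 0.15 in the dose-only group, with 41.3%, 41.6% and 10.2% of each whole group called higher. Against 450 mM NaCl the medians were -1.30 in the members, -1.06 in the submergence-only group and -0.16 in the dose-only group. Against the control they were -1.07, -0.87 and -0.11 in the same order. Over all eligible transcripts these 3 medians were 0.12, -0.05 and -0.02. On the scale from submergence in water to 700 mM NaCl, the median place was 0.26 in the members, 0.40 in the submergence-only group and 0.09 in the dose-only group. At or past the midpoint lay 12.7%, 33.7% and 7.81% in the same order. The dose step took the 700 mM end high in the members and the dose-only group. On the scale from submergence in water to the control, the median place was 0.48 in the members and 0.49 in the submergence-only group. The groups differed in abundance. Median RPKM in submergence in water was 0.385 in the members, 2.44 in the submergence-only group and 2.32 in the dose-only group. The added 0.5 and the minimum RPKM of a call weigh more on low transcripts. Near-equal ratios or shares of the members and the submergence-only group are therefore not like for like. No test of a difference between the groups was possible.

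At the lower salt dose the members stood near the control. At 450 mM NaCl 0 members were called higher and 0 lower than the control. Of callable transcripts 2.92% were called higher and 3.38% lower, and of all eligible transcripts 0.545% and 0%. The rule bars falls beyond -0.5 on the log2 scale, which fixed the count of 0 lower, and the count of 0 higher is near the eligible share. The median log2 ratio was 0.08 (-0.17 to 0.36). Of the members, 84 stood above the control (56%) and 66 below it, which is near the 52.7% of all eligible transcripts above it. The counting interval lay above 1 for 49 members and below 1 for 11, with no eligible share computed. This balance moves with scaling and with the rule. Median-of-ratios scaling adds 0.16 to log2 ratios of 450 mM to control taken on plain RPKM, and then 109 members stood above, against 83 with equal sums of RPKM. Chosen without the minimum RPKM at 700 mM, members had a median of -0.029, and without the bar on low values at 450 mM, of -0.11. Median-of-ratios scaling also takes 0.13 from plain log2 ratios of submergence in salt to 450 mM, and then 143 members stood lower there. At 700 mM NaCl all 150 members stood above the control, with a median log2 ratio of 1.44 (1.18 to 1.74), and 136 were called higher, where 4.52% of callable transcripts were. The rule fixed the direction of this ratio, since it took members by the dose step and barred 450 mM values far below the control. The count of 136 is therefore a description only. Over all eligible transcripts 3.69% were called higher.

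Members already above the control at 450 mM had somewhat higher ratios under salt water. The 84 members at or above the control at 450 mM had a median log2 ratio of submergence in salt to submergence in water of 1.0, and the 66 below it had 0.76. Across all 150, the log2 ratio of 450 mM to control and that of submergence in salt to submergence in water, which share no library, correlated with Pearson's r of 0.21 and Spearman's rho of 0.21. So weak a relation in low counts is given as a value only. The dose step itself and the ratio of submergence in salt to submergence in water correlated with Pearson's r of -0.13.

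The 6 highest scores are given first, with the value in every library. Pc_TC119372 (746 nt) stood at 1.13 RPKM in submergence in salt, 13.4 at 700 mM, 3.16 at 450 mM, 0.102 when submerged in water and 1.92 in the control. In submergence in salt it stood 11.1-fold above submergence in water (4.82 to 31.3) and 1.70-fold below the control (1.21 to 2.40). Only 6 reads stood behind its level in submergence in water. Pc_TC091802 (532 nt) stood at 0.703 RPKM in submergence in salt, 28.6 at 700 mM, 7.95 at 450 mM, 0.190 when submerged in water and 8.06 in the control. Its fall in submergence in water was 42.4-fold (21.2 to 99.2). With salt under water it was 11.5-fold below the control (7.74 to 17.6). Both salt treatments without submergence lay near or above the control, and both submerged libraries far below it.

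Pc_TC103343 (639 nt) and Pc_TC087731 (400 nt) had like profiles. Pc_TC103343 stood at 0.314 RPKM in submergence in salt, 10.1 at 700 mM, 2.62 at 450 mM, 0.178 when submerged in water and 2.65 in the control. Pc_TC087731 stood at 0.434 RPKM in submergence in salt, 8.94 at 700 mM, 2.38 at 450 mM, 0.158 when submerged in water and 2.43 in the control. In both, 450 mM NaCl and the control were nearly level, and submergence in salt was not separable from submergence in water by counting error (1.76-fold, 0.721 to 4.56, and 2.74-fold, 0.918 to 9.83). Pc_TC025105 (909 nt) had 0.823 RPKM in submergence in salt, 11.6 at 700 mM, 2.94 at 450 mM, 0.822 when submerged in water and 3.83 in the control. Both submerged libraries held it at the same level (95% interval of the ratio 0.682 to 1.47), although it was 3.95-fold higher at 700 mM than at 450 mM (3.32 to 4.74). Pc_TC052110 (212 nt), also among the most abundant, stood at 5.80 RPKM in submergence in salt, 81.0 at 700 mM, 23.7 at 450 mM, 0.657 when submerged in water and 12.5 in the control.

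The 6 most abundant members at 700 mM NaCl were Pc_TC052110, described above, and the 5 that follow. Pc_TC012290 (1381 nt) led with 68.3 RPKM in submergence in salt, 498 at 700 mM, 209 at 450 mM, 61.6 when submerged in water and 197 in the control. It was 2.38-fold higher at 700 mM than at 450 mM (2.34 to 2.43) and 3.20-fold lower in submergence in water than in the control (3.11 to 3.29). In submergence in salt it stood 1.11-fold above submergence in water (1.07 to 1.15) and 3.06-fold below 450 mM NaCl (2.97 to 3.14). The most abundant member thus had nearly the same level in both submerged libraries and stood higher in the other 3 libraries.

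Pc_TC004572 (2710 nt) had 26.2 RPKM in submergence in salt, 201 at 700 mM, 82.5 at 450 mM, 7.88 when submerged in water and 64.2 in the control. It was 3.33-fold higher in submergence in salt than in submergence in water (3.15 to 3.52) and 2.45-fold lower than in the control (2.37 to 2.53). Pc_TC007121 (1855 nt) had 9.81 RPKM in submergence in salt, 81.4 at 700 mM, 32.2 at 450 mM, 3.74 when submerged in water and 27.4 in the control. Both, and Pc_TC028288 below, lay between submergence in water and the control with intervals that reached neither. Pc_TC028288 (1244 nt) had 8.91 RPKM in submergence in salt, 67.8 at 700 mM, 28.0 at 450 mM, 1.95 when submerged in water and 23.0 in the control. Pc_TC052144 (336 nt) had 17.2 RPKM in submergence in salt, 114 at 700 mM, 52.9 at 450 mM, 2.79 when submerged in water and 51.2 in the control. Its fall in submergence in water was 18.4-fold (14.5 to 23.6), the deepest of the 6 after Pc_TC052110 at 19.0-fold (10.3 to 38.9).

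**Figure D5:**
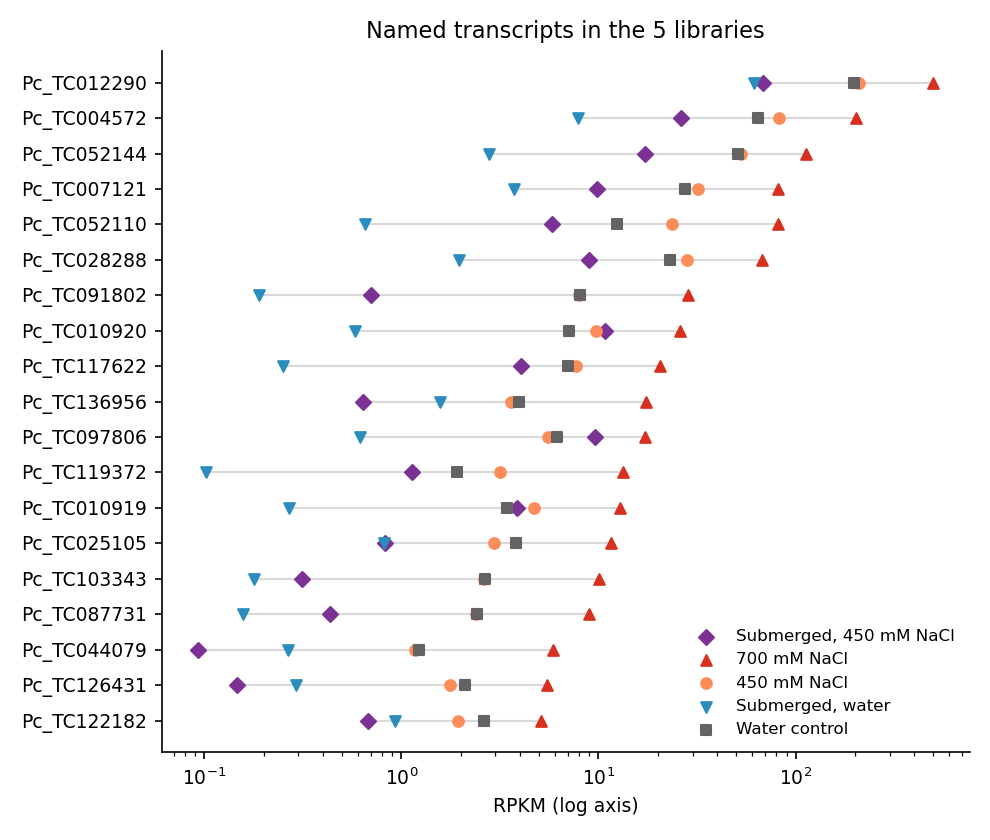
RPKM (log axis) of 19 named members in the 5 libraries, ordered by the level at 700 mM NaCl. Red triangles (700 mM) are always rightmost. Purple diamonds (submergence in 450 mM NaCl) run from below the blue triangles of submergence in water, as in Pc_TC136956 at 0.636 RPKM, to above the control, as in Pc_TC097806 at 9.65 RPKM.

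By RPKM + 0.5, the 4 members highest in submergence in salt over submergence in water stood 14.4-fold to 18.4-fold higher as plain RPKM ratios. Pc_TC010920 (953 nt) stood at 10.8 RPKM in submergence in salt against 0.584 in submergence in water, 18.4-fold higher (13.6 to 25.5). It had 25.9 RPKM at 700 mM, 9.77 at 450 mM and 7.10 in the control, so in submergence in salt it stood above the control. Pc_TC010919 (2403 nt), next to it in the assembly numbering, stood at 3.86 RPKM in submergence in salt, 12.9 at 700 mM, 4.70 at 450 mM, 0.269 when submerged in water and 3.43 in the control. Pc_TC097806 (288 nt) had the highest place of all, 0.80, with 9.65 RPKM in submergence in salt, 17.3 at 700 mM, 5.57 at 450 mM, 0.615 when submerged in water and 6.13 in the control. It was 15.7-fold above submergence in water (9.14 to 29.2). Pc_TC117622 (201 nt) stood at 4.05 RPKM in submergence in salt against 0.252 in submergence in water, 16.1-fold higher (5.97 to 60.9), with 7.03 in the control. Its level in submergence in water rests on 4 reads, and in submergence in salt it stood below the control.

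The 4 lowest ratios by RPKM + 0.5 were among the 9 members that stood lower in submergence in salt than in submergence in water. Pc_TC136956 (210 nt) had the lowest place, -0.28, with 0.636 RPKM in submergence in salt, 17.5 at 700 mM, 3.58 at 450 mM, 1.57 when submerged in water and 3.95 in the control. Its ratio of submergence in salt to submergence in water was 0.406 (0.175 to 0.870), the only one of the 150 with an interval below 1. Pc_TC122182 (571 nt) had 0.678 RPKM in submergence in salt against 0.931 in submergence in water, a ratio of 0.729 (0.438 to 1.20). Pc_TC126431 (911 nt) had 0.147 RPKM in submergence in salt against 0.292 in submergence in water (ratio 0.502, 0.211 to 1.11). Pc_TC044079 (286 nt) had 0.0934 RPKM in submergence in salt against 0.266 in submergence in water, from 2 and 6 reads, a ratio of 0.352 (0.0347 to 1.97). For all but Pc_TC136956 the interval included 1.

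Lengths recovered from the RPKM steps, which the rule did not use directly, were lower at the median than among eligible transcripts. Members had a median length of 537 nt (304.5 to 1059 between quartiles, 200 to 9525 overall), against 989 nt in all eligible transcripts. The submergence-only group had a median of 684 nt and the dose-only group 344.5 nt. The 54 members under 400 nt had a median place of submergence in salt of 0.36, the 53 from 400 to under 1000 nt of 0.23 and the 43 of at least 1000 nt of 0.21. Reads in submergence in water differed along with length: their median was 9 in the shortest class, 18 in the middle class and 46 in the longest. The part of read depth in this difference, and in the lower median length of the members, was not tested. Over all members, 8 had fewer than 10 reads in submergence in salt and 54 when submerged in water, so single ratios of these are loose.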

How the data were processed

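The authors filtered reads with NGS QC Toolkit, mapped them to assembled *Porteresia* transcripts and deposited RPKM per transcript, per the labels and the series text; mapper, versions, assembly and the treatment of reads that map to several transcripts are not stated in the sources used here. RPKM was used as deposited for the rule and all ratios. Read totals, lengths and whole reads were solved from RPKM steps (length of at least 200 nt, tolerance 0.01 read), with a solution for 152263 transcripts; the smallest solution was taken, so some lengths and reads may be fractions of the true ones. Recovered reads made up 99.05% to 99.14% of each read total. They served for intervals (Clopper-Pearson, 95%), lengths and limits on reads only. The recovery and the rule were also run on simulated data, with the recovered lengths and reads drawn at random. Changes were put only into simulated transcripts with more reads than most members had. The run therefore does not show how the rule performs for transcripts with as few reads as the members. Such data cannot show whether recovered lengths are fractions of the true ones, nor the spread between plants. No count model or test was run, with 1 library a condition.

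Members and lists were chosen with earlier results of these data known. Named transcripts are the 6 highest scores, the 6 highest RPKM at 700 mM NaCl, the 4 highest and 4 lowest ratios of submergence in salt to submergence in water, and the 2 on each side of the limit. Gene lists for salt, ion transport, hypoxia, photosynthesis and growth could not be applied, as no gene names were given. Alternatives changed the pseudocount, minimum RPKM, scaling, limit at 450 mM, number of members, upper end of the scale and size of a call; a minimum of 10 reads was added after seeing the data. Python 3.11.15, numpy 2.4.6, pandas 2.3.3, scipy 1.17.1, numba 0.67.0 and matplotlib 3.10.9 were used.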

Additional observations from a re-analysis of the deposited data

Results flagged for a closer look

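In 11 members submergence pointed in opposite directions without and with salt: they stood lower in submergence in water than in the control, and higher in submergence in 450 mM NaCl than at 450 mM NaCl. These are 7.33% of members; the same ratio in salt was above 0 on the log2 scale in 2.82% of the 3587 transcripts with the submergence fall but without the dose step, and in 46.1% of all eligible transcripts. The rule had taken members low at 450 mM against 700 mM, which favours a higher ratio in salt. With 1 library a condition, the difference itself was not tested. In 3 of the 11 the counting interval of the ratio in salt lay above 1. Pc_TC097806 stood at 9.65 RPKM in submergence in salt against 5.57 at 450 mM (1.73-fold, 1.35 to 2.23), and at 0.615 RPKM in submergence in water against 6.13 in the control. Pc_TC106008 stood at 3.19 RPKM in submergence in salt against 2.08 at 450 mM (1.54-fold, 1.27 to 1.87), and at 0.304 RPKM in submergence in water against 1.97 in the control. Pc_TC088115 stood at 5.43 RPKM in submergence in salt against 4.06 at 450 mM (1.34-fold, 1.05 to 1.72), and at 0.626 RPKM in submergence in water against 5.20 in the control. Pc_TC106008 and Pc_TC088115 were named after their values were seen. None of the 11 was called higher in salt.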

How the results depend on the processing

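Of 147 alternative values over 14 settings, 97 stayed within a binomial 95% interval of the value reported and 50 moved beyond it. That interval is taken over members, which are not replicates of a condition, so it is a yardstick of size only. A turn of sign was counted only where the reported median log2 ratio was at least 1 in size, and 0 were counted. The median of 450 mM to control, 0.08, was too small to count. It fell below 0 without the minimum RPKM and without the limit on 450 mM. The cause of the moves was not tested. Ratios are median log2 ratios over members. With a pseudocount of 0.1, submergence in salt stood at 1.35 against submergence in water, -1.49 against 450 mM and -3.00 against 700 mM; 700 mM stood at 1.42 against 450 mM and 1.58 against control, submergence in water at -2.50 against control, the median place at 0.32 and the control RPKM at 2.70. With a pseudocount of 1 the same ratios were 0.73, -1.07, -2.26, 1.16, 1.29 and -1.56, and 33.3% were called higher in submergence in salt than in water. Without the minimum of RPKM 5, submergence in salt stood at 0.71 against submergence in water (32% called higher), 52.7% were called lower than at 450 mM, 700 mM stood at 1.36 against 450 mM, submergence in water at -1.68 and 450 mM at -0.029 against control, and control RPKM was 2.19. With a minimum of RPKM 10, which kept 65 of the members, submergence in salt stood at 1.27 against submergence in water (62% called higher), -0.95 against control and -2.37 against 700 mM; 700 mM stood at 1.08 against 450 mM and 1.34 against control, submergence in water at -2.30 and 450 mM at 0.22 against control, the place at 0.33 and control RPKM at 6.56. Without the limit on 450 mM, which kept 109 members, submergence in salt stood at -0.97 against 450 mM (49.3% called lower), 700 mM at 1.42 against 450 mM and 1.34 against control, and 450 mM at -0.11 against control. With 75 and 300 members, submergence in salt stood at -2.89 and -2.29 against 700 mM, which stood at 1.44 and 1.11 against 450 mM and 1.59 and 1.30 against control. With 450 mM as the upper end the place was 0.44 (40% past the midpoint), with the control 0.48 (47.3%). At 4-fold, 8% were called higher than submergence in water, 8% lower than 450 mM and 4.67% lower than control. Both scalings, calls beyond counting error and the 96 members with at least 10 reads in each library moved none of the 147 values beyond its interval. The number of members above the control at 450 mM was not among these values. It went from 84 to 109 with median-of-ratios scaling. No paired analysis was possible because each condition has 1 library. Depth limits single members low in submergence in water; medians over members do not measure the spread between plants.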

Other observations

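Members with neighbouring assembly numbers came in 3 pairs with numbers at most 2 apart, named after their values were seen. Pc_TC010919 and Pc_TC010920 had alike places of submergence in salt on the scale from submergence in water to 700 mM NaCl, 0.61 and 0.73. Pc_TC025625 had 3.09 RPKM in submergence in salt against 2.94 in submergence in water, and Pc_TC025627 had 2.10 against 1.13. Their places were less alike, 0.020 and 0.195. Pc_TC140315 had 0.169 RPKM in submergence in salt against 0.0534 in submergence in water, while its neighbour Pc_TC140314 had 1.55 against 0.412. The place of Pc_TC140315 was 0.066 and that of Pc_TC140314 was 0.38. The values of Pc_TC140315 rest on 3 reads in submergence in salt and 1 in submergence in water. The interval of their ratio ran from 0.254 to 166, so its place is loose. Whether such neighbours are parts of 1 gene is not recorded in the files.

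Assembly numbers under 40000 were borne by 29.3% of members, 36.4% of the submergence-only group, 31.3% of the dose-only group and 56.8% of all eligible transcripts. The files do not say what the order of the numbers reflects.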
